A study of Mus musculus with 6 samples.

Results

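Cytochrome P450 enzymes are haem proteins that insert an oxygen atom into drugs, pollutants, fatty acids, steroids and sterols. They take electrons from the reductase Por or, in mitochondria, from ferredoxin. Skin is exposed to foreign chemicals and also makes its own barrier lipids, and its P450 enzymes act in both settings. The 8 genes described here, Cyp2f2, Cyp2b10, Cyp3a13, Cyp1b1, Cyp4b1, Cyp2b19, Cyp39a1 and Cyp7b1, were taken by symbol from 100 P450 genes among the 24453 symbols in the count files. They were picked with their values in these libraries already known. Their levels and fold changes between the groups are therefore given as a description, and no p-value is printed for them.

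RNA was sequenced from interfollicular epidermal cells from mouse back skin on postnatal day 0, sorted for EpCAM, Sca1 and a high level of α6-integrin. 3 libraries carry the genotype label Control and 3 the label Ring1a-/- Ring1b-/-, a double knockout (dKO) of the 2 ubiquitin ligases of Polycomb repressive complex 1, which keeps developmental genes silent. The labels name no Cre driver, strain or genotype of the controls, and whether each library is a separate animal is not said, so a p-value here is set by the spread of 3 samples per group that could be technical. The libraries are called C1, C2 and C3 (control-labelled) and K1, K2 and K3 (dKO-labelled).

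Ring1, which encodes Ring1a, was at 30.9 (C1), 17.1 (C2) and 3.90 (C3) CPM (counts scaled to the library's size, with TMM factors) against 1.66 (K1), 5.2 (K2) and 14.2 CPM (K3). K3 thus lay above C3, against the labels, and the P450 genes are also described with replicates 1 and 2 alone. Rnf2, the gene of Ring1b, overlapped between the groups, at 43.2 to 63.2 and 55.4 to 64.1 CPM, so its level did not separate the labels, and which exons were deleted is not known here. Depth was 18951665 to 31187270 counts per library, and an observed 0 allows a true level of up to 3 counts (0.0975 to 0.154 CPM). All 3 genes of the sort, Epcam, Ly6a and Itga6, were counted in every library. Their summed levels were 1041 to 1625 CPM (control-labelled) and 1300 to 1522 CPM (dKO-labelled), mostly from Itga6 (857 to 1457 and 1020 to 1149 CPM). Epcam had 116 to 168 CPM in the control-labelled and 207 to 381 CPM in the dKO-labelled libraries, without overlap (edgeR log2 fold change 0.95 ± 0.27, SE, adjusted p = 0.0598). DESeq2 called 1 of the 3 higher. Ly6a was at 15.1 CPM in C1 and at 48.8 to 63.5 CPM in the other libraries. The second principal component, with 19.04% of the variance, placed C1 at 39.5 and K1 at 51.1 and the remaining 4 libraries at -30.8 to -10.3.

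In the fit over all 14890 tested genes, 10.2% were called changed (edgeR, adjusted p under 0.05), 2.98% lower and 7.17% higher in the dKO-labelled libraries. All 8 P450 genes passed the count filter, 5 were called lower, 1 higher and 2 were not called. The median log2 fold change of the 8 was -2.07, against 4.0e-04 over all tested genes. Nothing is read from these counts, since the genes were chosen on this contrast. 6 of the 8 did not overlap between the groups, as did 32.4% of all tested genes. Cyp2f2 and Cyp2b10 met the filter through the control-labelled and Cyp7b1 through the dKO-labelled libraries. With both groups at the lower level these 3 would not have been tested. The count of 6 called became 2 with replicates 1 and 2 alone, where Cyp2f2 (log2 fold change -6.96) and Cyp4b1 (-4.76) were called and Cyp2b10 (-3.33), Cyp3a13 (-2.36), Cyp39a1 (-1.79) and Cyp7b1 (3.86) were not. It became 3 without C1, C2, K2 or K3, 2 without C3 and 5 without K1. In bulk samples, fewer cells of a type and less RNA per cell cannot be told apart.

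**Figure D1:**
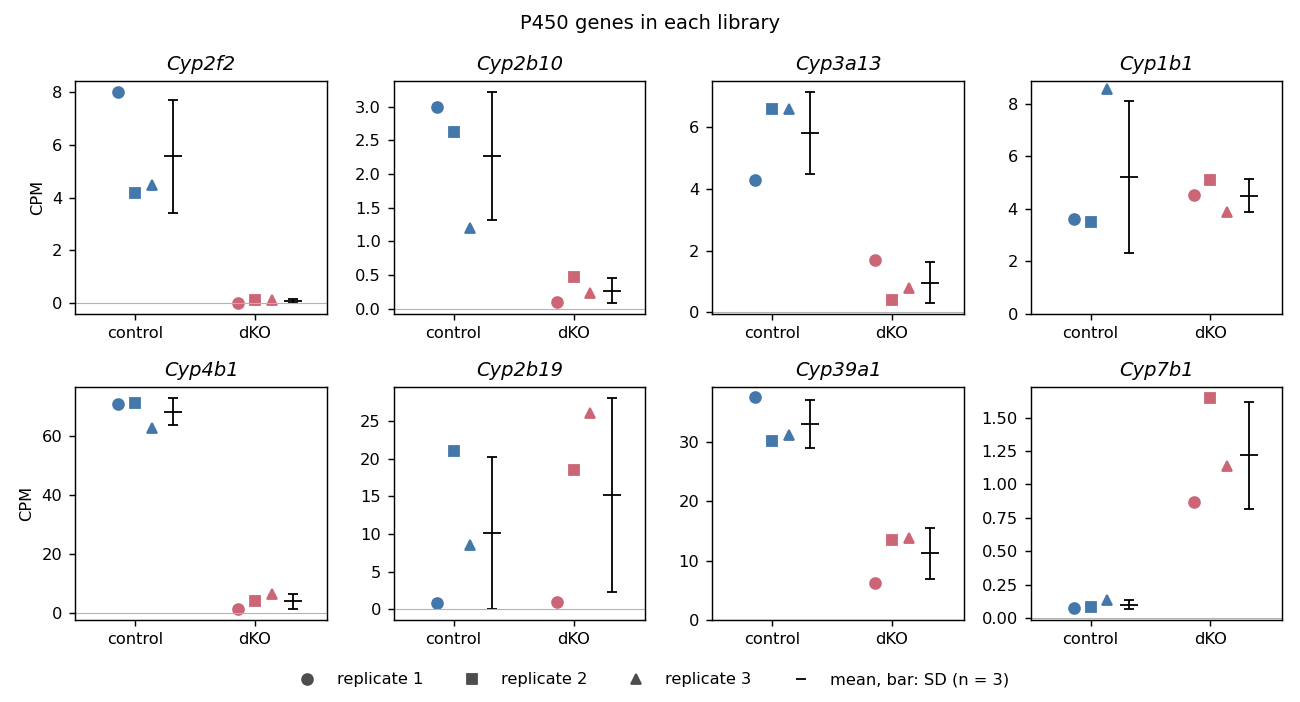
CPM of the 8 P450 genes in each library, in control-labelled (blue) and dKO-labelled (red) groups. The marker shape gives the replicate number, and the black line and bar give the mean and SD of 3 libraries. Cyp4b1 sits at 62.9 to 71.2 CPM in the control-labelled and at 1.21 to 6.34 CPM in the dKO-labelled libraries, while Cyp2b19 is under 1 CPM in replicate 1 of both groups.

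Promoter sequences from RefSeq (build GRCm38.p6) matched 6 of the 8 genes. Compared were the 200 bases from 250 to 51 bases before the RefSeq start of each gene. For Cyp2b10, Cyp2f2 and, by a few bases, Cyp4b1 that start lies further downstream than the GENCODE gene start given with their levels below. The Cyp2b10 and Cyp2b19 sequences are shown because these paralogs of 1 chromosome 7 cluster resemble each other upstream, while their levels across the libraries did not run together. In a global alignment 144 of 176 aligned bases were identical (81.8%), with 48 gap positions. Capitals mark their longest shared run, 14 bases. It begins 208 bases before the RefSeq start of Cyp2b10 and 199 bases before that of Cyp2b19. The windows are chr7:25897408-25897607 and chr7:26756892-26757091, plus strand.
Cyp2b10: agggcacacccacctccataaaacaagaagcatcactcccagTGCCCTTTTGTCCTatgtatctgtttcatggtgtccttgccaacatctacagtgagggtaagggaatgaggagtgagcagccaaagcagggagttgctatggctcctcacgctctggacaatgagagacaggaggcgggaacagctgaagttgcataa
Cyp2b19: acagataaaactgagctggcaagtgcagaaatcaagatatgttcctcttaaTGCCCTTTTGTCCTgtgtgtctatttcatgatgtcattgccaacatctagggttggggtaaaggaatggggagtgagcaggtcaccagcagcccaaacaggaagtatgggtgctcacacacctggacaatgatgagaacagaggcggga

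The windows of Cyp2f2 (chr7:27119705-27119904, plus strand), Cyp4b1 (chr4:115647772-115647971, minus strand) and Cyp1b1 (chr17:79715112-79715311, minus strand) are shown for their content of CpG dinucleotides, in capitals, because Polycomb complexes are known to gather at CpG-rich promoters. Cyp2f2 and Cyp4b1 were the called genes with the largest log2 fold changes, and Cyp1b1 was not called.
Cyp2f2: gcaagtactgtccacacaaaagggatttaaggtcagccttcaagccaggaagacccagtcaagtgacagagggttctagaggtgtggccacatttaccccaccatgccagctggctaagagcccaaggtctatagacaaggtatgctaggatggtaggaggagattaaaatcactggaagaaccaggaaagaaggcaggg
Cyp4b1: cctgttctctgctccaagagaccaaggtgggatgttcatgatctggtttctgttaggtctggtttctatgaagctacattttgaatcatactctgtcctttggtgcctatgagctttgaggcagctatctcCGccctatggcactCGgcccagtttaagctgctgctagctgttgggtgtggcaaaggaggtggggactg
Cyp1b1: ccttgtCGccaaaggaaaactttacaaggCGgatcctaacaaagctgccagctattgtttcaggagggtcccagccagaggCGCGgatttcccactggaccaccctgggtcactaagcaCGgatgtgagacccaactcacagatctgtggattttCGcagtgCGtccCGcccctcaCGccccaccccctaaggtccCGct

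Cyp2f2 held no CpG in its window, as did 11.0% of 32817 promoters of this length. Cyp2b19 and Cyp3a13 held 1, Cyp2b10 and Cyp4b1 held 2 and Cyp1b1 held 10, against a median of 4. The 5 genes other than Cyp1b1 were thus below the median promoter in CpG, and 73.3% of promoters held as many as Cyp1b1 or fewer. GCGTG, the core of the site bound by the aryl hydrocarbon receptor, was searched on both strands. It occurred once each in the windows of Cyp1b1 and Cyp2b10, in none of the other 4, and in 22.5% of all promoters. The longer string TNGCGTG, with N any base, occurred in none of the 6 windows and in 3.27% of all promoters. A match of letters is a description of the sequence and not a bound site.

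Among the enzymes of foreign compounds, Cyp2f2 differed most between the groups. Cyp2f2 oxidises small aromatic compounds such as naphthalene and is best known from club cells of the airway (chromosome 7, 27119909 to 27133660, plus strand, GRCm38). It had 8.03 (C1), 4.20 (C2) and 4.48 CPM (C3) against 0 (K1), 0.103 (K2) and 0.130 CPM (K3). Every dKO-labelled library was at or near the limit that 3 counts set, and the groups did not overlap. The summed counts, 441 against 6, give a control-to-dKO ratio of 73.8 (exact 95% interval 33.6 to 202, for counting error only), and the fitted log2 fold change was -6.10 ± 0.88 (SE, n = 3 libraries per group). Cyp2f2 was still called with any 1 library left out, at log2 fold changes of -6.83 to -5.50. The club cell markers were near 0 in all libraries: Scgb1a1 reached at most 0.260 CPM, and Scgb3a2, Bpifa1 and Sftpd had no count. An antisense gene, Gm15883, overlaps Cyp2f2 and shares 4.64% of its 100-base windows. It is not listed in the count files, and whether counting used strand is unknown.

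Cyp2b10, a drug and steroid oxidase that liver induces through the receptor Nr1i3, was scarcer (chromosome 7, 25897620 to 25926624, plus strand). It had 3.001 (C1), 2.62 (C2) and 1.20 CPM (C3) against 0.104 (K1), 0.463 (K2) and 0.227 CPM (K3). All 3 dKO-labelled values lay below the lowest control-labelled one, on 175 against 19 summed counts. The log2 fold change was -3.11 ± 0.81 (SE). The call ended when any 1 of the 6 libraries was left out, although the log2 fold change stayed between -3.73 and -2.72. None of its 100-base windows was shared with a transcript of another gene. The hepatocyte marker Alb reached at most 0.350 CPM in any library. Apoa1, another hepatocyte marker, was counted in every library, at 0.171 to 0.727 CPM, and Ttr, Fgb and Serpina1a had no count.

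Cyp3a13 is a member of the drug-metabolising Cyp3a family that is also expressed outside the liver (chromosome 5, 137892932 to 137921619, minus strand). It had 4.28 (C1), 6.60 (C2) and 6.57 CPM (C3) against 1.70 (K1), 0.412 (K2) and 0.780 CPM (K3). The groups did not overlap, and K1 was the highest of the dKO-labelled libraries, unlike for Cyp2f2 and Cyp2b10, where K1 was the lowest. The log2 fold change was -2.57 ± 0.60 (SE). It ranged from -3.25 to -2.23 with 1 library left out, and the call ended without C2, C3, K2 or K3.

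Cyp1b1, which oxidises polycyclic hydrocarbons, oestrogens and retinoids and is a classical target of the aryl hydrocarbon receptor, was not called (chromosome 17, 79701537 to 79715061, minus strand). It had 3.60 (C1), 3.497 (C2) and 8.55 CPM (C3) against 4.53 (K1), 5.10 (K2) and 3.87 CPM (K3). The groups overlapped, and C3 stood above the other 5 libraries. The log2 fold change of -0.22 ± 0.46 (SE) turned to 0.34 without C3 and to 0.43 with replicates 1 and 2 alone. C3 also had the highest summed levels of the 5 endothelial (45.5 CPM) and 6 immune (222 CPM) markers. In the other libraries these sums were 6.86 to 38.2 and 48.6 to 176 CPM. K3 had the next highest sums, at 38.2 and 176 CPM, with Cyp1b1 at 3.87 CPM. The sum of the fibroblast markers was highest in C1, at 815 CPM, where Cyp1b1 was at 3.60 CPM. The part of such cells in the Cyp1b1 level was not tested.

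The enzyme of fatty acids and protoxins, Cyp4b1, was the most abundant of the 8 genes in the control-labelled libraries (chromosome 4, 115624725 to 115647723, minus strand). Cyp4b1 hydroxylates medium-chain fatty acids and activates plant protoxins. It had 70.9 (C1), 71.2 (C2) and 62.9 CPM (C3) against 1.21 (K1), 4.12 (K2) and 6.34 CPM (K3). The control-labelled values were close to each other (coefficient of variation 6.86%), and the dKO-labelled ones spread widely (66.1%) with K1 lowest. The mean fell from 68.3 ± 4.69 to 3.89 ± 2.57 CPM (SD, n = 3), a ratio of 17.6, and the log2 fold change was -4.13 ± 0.52 (SE). Cyp4b1 was called with any 1 library left out, at -4.71 to -3.69. Of its 100-base windows 4.46% also occur in its pseudogenes Cyp4b1-ps1 and Cyp4b1-ps2.

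Cyp2b19 is an epoxygenase of arachidonic acid known from differentiated keratinocytes of the granular layer (chromosome 7, 26757142 to 26772630, plus strand). It had 0.863 (C1), 20.98 (C2) and 8.59 CPM (C3) against 0.935 (K1), 18.5 (K2) and 26.1 CPM (K3). The groups overlapped, and the level in replicate 1 of both groups was far below that in the other 4 libraries. The log2 fold change of 0.59 ± 1.13 (SE) was not called, and it ranged from -0.06 without K3 to 1.68 without C2. With replicates 1 and 2 alone it was -0.17.

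Of the 11 granular-layer markers in the files, 5 also had their lowest levels in C1 and K1, namely Hrnr, Flg2, Rptn, Lce1a1 and Lce1b, and 6 did not. The cornified-layer protein Hrnr had 1.16 and 2.22 CPM there and 19.3 to 78.0 CPM in the other 4 libraries. Flg2, a filaggrin relative, had 0.413 and 0 CPM in C1 and K1 and 1.75 to 11.9 CPM elsewhere, and Lce1b, a late envelope protein, had 0.638 and 0.208 against 4.17 to 16.01 CPM. Casp14, a protease of cornification, went another way, with its highest level in C1 (72.1 CPM) and its lowest in K1 (21.01 CPM). Ivl, an envelope protein, was lowest in C1 (0.563 CPM), while K1 (1.70 CPM) lay above K3 (1.20 CPM), and the envelope protein Lor was at 16.2 CPM in K1, above the 15.2 CPM of C3. Summed over the 11 genes, C1 and K1 had 121 and 113 CPM and the other libraries 153 to 381 CPM. The 7 suprabasal markers summed to 2456 and 1900 CPM in C1 and K1 and to 3859 to 5574 CPM in the others. Krt1, Krt10, Sbsn, Dsg1a and Dsc1 each had their lowest levels in C1 and K1. Krtdap and Calml3 did not, with K1 (821 and 3.46 CPM) above C2 (541 and 2.40 CPM) and C3 (568 and 2.19 CPM). Krtdap was the 1 of 7 called higher (edgeR log2 fold change 0.96 ± 0.21, SE, adjusted p = 0.0246), a call that ended without C2, C3, K2 or K3. Between the groups 2 of the 11 granular-layer markers rose, the kallikreins Klk7 and Klk5 (edgeR log2 fold changes 2.27 ± 0.33 and 1.43 ± 0.29, SE, adjusted p = 0.00413 and 0.0162). Klk5 lost its call without C3 or K2 (adjusted p = 0.0733 and 0.0764, edgeR). The hair and skin transglutaminase Tgm3 fell by 2.75 on the log2 scale (adjusted p = 0.00172, edgeR), and 8 did not pass. Among all tested genes 7.17% were called higher and 2.98% lower. The part of the cells with these markers in the Cyp2b19 level was not tested.

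**Figure D2:**
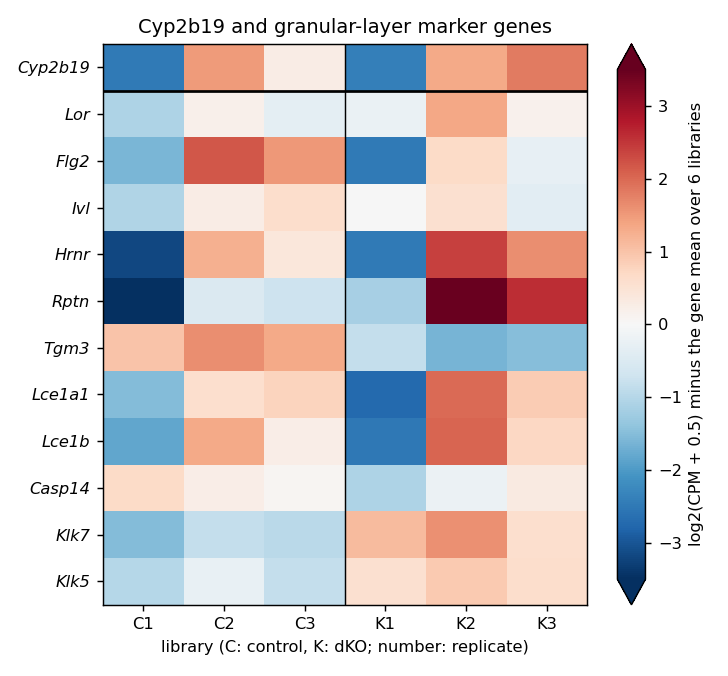
Cyp2b19 (top row) and the 11 granular-layer marker genes in each library, as log2(CPM + 0.5) minus the gene's mean over the 6 libraries (colour). Cyp2b19, Hrnr, Flg2, Rptn, Lce1a1 and Lce1b are lowest in C1 and K1, Casp14 is highest in C1, and Tgm3, Klk7 and Klk5 separate the labelled groups.

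The first of 2 sterol enzymes, Cyp39a1, an oxysterol hydroxylase on a side route to bile acids (chromosome 17, 43667425 to 43751431, plus strand), had 37.7 (C1), 30.2 (C2) and 31.1 CPM (C3) against 6.20 (K1), 13.5 (K2) and 13.9 CPM (K3). The groups were apart by more than 16 CPM, with K1 lowest. The mean went from 33.0 ± 4.07 to 11.2 ± 4.34 CPM (SD, n = 3) and the log2 fold change was -1.56 ± 0.33 (SE). It stayed between -1.74 and -1.26 with 1 library left out, and the call ended without C1 or C3.

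Cyp7b1, which hydroxylates oxysterols and steroid hormones and thereby removes them, was the 1 gene of the 8 called higher (chromosome 3, 18071950 to 18243338, minus strand). It had 0.0750 (C1), 0.0874 (C2) and 0.137 CPM (C3), from 2, 2 and 4 counts, against 0.865 (K1), 1.65 (K2) and 1.14 CPM (K3), from 25, 32 and 35 counts. All dKO-labelled libraries were above all control-labelled ones, at a level that was still low. The summed counts, 92 against 8, give a dKO-to-control ratio of 11.5 (exact 95% interval 5.58 to 27.3, for counting error only). The log2 fold change was 3.53 ± 0.81 (SE). Cyp7b1 met the count filter through the dKO-labelled libraries. The log2 fold change was 3.26 to 3.82 with 1 library left out, and the call ended without C1, C2, C3, K2 or K3.

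**Figure D3:**
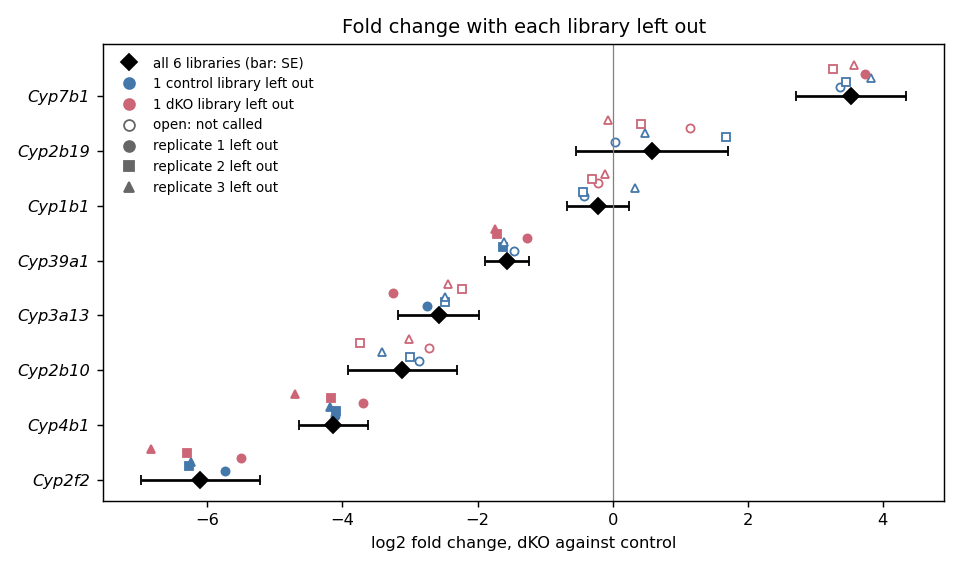
Log2 fold change (dKO-labelled against control-labelled) of each P450 gene with all 6 libraries (black, bar: SE) and with 1 control-labelled (blue) or 1 dKO-labelled (red) library left out. Open symbols were not called. Cyp2f2 and Cyp4b1 stay filled throughout, and Cyp2b10 is open for every library left out.

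Per kilobase of the longest transcript, the order of the levels changed between the groups. In the control-labelled libraries Cyp4b1 had 36.1 ± 2.48 and Cyp39a1 10.8 ± 1.33 CPM per kb (SD, n = 3), each apart from the next by more than the SDs. Cyp2b19 (3.70 ± 3.70), Cyp2f2 (2.98 ± 1.14), Cyp3a13 (1.97 ± 0.451), Cyp2b10 (1.19 ± 0.496) and Cyp1b1 (1.02 ± 0.563 CPM per kb) followed. Neighbours in this stretch of the order lay within their SDs of each other, and Cyp7b1 was last, apart from Cyp1b1 by more than the SDs, at 0.0461 ± 0.0151 CPM per kb. In the dKO-labelled libraries Cyp2b19 (5.55 ± 4.72) came first, then Cyp39a1 (3.67 ± 1.42) and Cyp4b1 (2.06 ± 1.36 CPM per kb). They were followed by Cyp1b1 (0.877 ± 0.120), Cyp7b1 (0.562 ± 0.183), Cyp3a13 (0.326 ± 0.224), Cyp2b10 (0.138 ± 0.0953) and Cyp2f2 (0.0416 ± 0.0368 CPM per kb). Here each pair of neighbours lay within their SDs except Cyp1b1 and Cyp7b1.

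Of the 12 tested genes nearest to the 8 on the chromosome, members left out, edgeR called 1, a share near the 10.2% of all tested genes. It was Zkscan1 beside Cyp3a13 (edgeR log2 fold change -0.59 ± 0.15, SE, adjusted p = 0.0405). That call ended without C1, C2, C3, K2 or K3 (edgeR adjusted p = 0.0696 to 0.141). Cyp4a32, a fatty acid P450 gene 3.12 kb from Cyp4b1, had 0.638 (C1), 2.19 (C2) and 1.95 CPM (C3) against 0 (K1), 0.154 (K2) and 0.130 CPM (K3). Its groups did not overlap, and its log2 fold change of -4.05 ± 1.10 (SE) missed the threshold (edgeR adjusted p = 0.0517). Slc25a27, a mitochondrial carrier gene that starts 0.211 kb from Cyp39a1 on the opposite strand, had 38.7 CPM in the control-labelled and 45.5 CPM in the dKO-labelled libraries on average (edgeR log2 fold change 0.24 ± 0.22, SE, adjusted p = 0.567). The difference between these neighbours' fold changes was not tested.

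Cyp2b10, Cyp2b19 and Cyp2f2 lie in a chromosome 7 cluster of 13 P450 genes, of which 5 were tested. The other tested genes at its ends were Cyp2s1, an extrahepatic enzyme, and Cyp2t4. Cyp2s1 had 10.2 to 34.1 CPM in the control-labelled and 2.84 to 20.4 CPM in the dKO-labelled libraries (edgeR log2 fold change -0.98 ± 0.67, SE, adjusted p = 0.423). Cyp2t4 had 3.73 to 12.5 and 2.21 to 3.54 CPM (edgeR log2 fold change -1.31 ± 0.52, SE, adjusted p = 0.162), so its groups did not overlap and it still did not pass. Within the cluster, Cyp2b13, Cyp2b9, Cyp2b23, Cyp2a5 and Cyp2a12 had no count in any library.

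Beyond the 8, 92 P450 genes were in the files. 37 had no count, 20 were tested, 2 rose and 18 did not pass, with a median log2 fold change of 0.01. The 2 calls among 20 are a share near the 10.2% of all tested genes. Since the 8 were drawn from the same family, the remainder is what that choice left over. Cyp26b1, which clears retinoic acid, rose from 5.11 ± 0.510 to 13.96 ± 2.497 CPM (SD, n = 3; edgeR log2 fold change 1.45 ± 0.29, SE, adjusted p = 0.0158). Cyp4f39, which hydroxylates the very long fatty acids of barrier ceramides, rose from 2.53 ± 0.0815 to 10.4 ± 4.55 CPM (edgeR log2 fold change 2.03 ± 0.44, SE, adjusted p = 0.0208). Cyp26b1 lost its call without C2, C3, K2 or K3 (edgeR adjusted p = 0.0551 to 0.0802) and Cyp4f39 without C1, C2, C3, K2 or K3 (edgeR adjusted p = 0.0586 to 0.0880). None of the 20 was called lower by edgeR, 4 were lower at an unadjusted p under 0.05, DESeq2 called 3 lower and limma-voom 1. With 1 library left out the calls among these genes numbered 0 (without C3, K2 or K3), 1 (without C1 or C2) or 3 (without K1), and with replicates 1 and 2 alone 0.

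By function, none of 7 tested genes of P450 families 1 to 3, which mostly act on foreign compounds, was called by edgeR, with a median of -1.13 and 6 of 7 negative. At an unadjusted p under 0.05 3 of them were lower, DESeq2 called 2 lower and limma-voom 1. Cyp2w1, the most counted of them, had 190 (C1), 131 (C2) and 119 CPM (C3) against 9.76 (K1), 46.6 (K2) and 72.8 CPM (K3). It did not pass (edgeR log2 fold change -1.77 ± 0.58, SE, adjusted p = 0.0970), but did without K1 (-1.29; edgeR adjusted p = 0.0322). Of 6 tested genes of family 4, which acts on fatty acids, Cyp4f39 rose and 5 did not pass, with a median of -0.23. Of 7 tested genes of the higher families, which mostly act on sterols, steroids, retinoids and vitamin D, Cyp26b1 rose and 6 did not pass. The median was 0.86 and all 7 were positive, but the members Cyp39a1, called lower, and Cyp7b1, called higher, were left out. Left out in the same way were Cyp1b1, Cyp2b10, Cyp2b19, Cyp2f2 and Cyp3a13 from families 1 to 3 and Cyp4b1 from family 4. Of these Cyp2b10, Cyp2f2, Cyp3a13 and Cyp4b1 were called lower. The log2 fold changes of Cyp17a1 (0.44 ± 1.29, SE) and Cyp27b1 (0.39 ± 0.71, SE) were smaller than their SEs, and their groups overlapped. Cyp51 turned to -0.07 with replicates 2 and 3 alone.

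**Figure D4:**
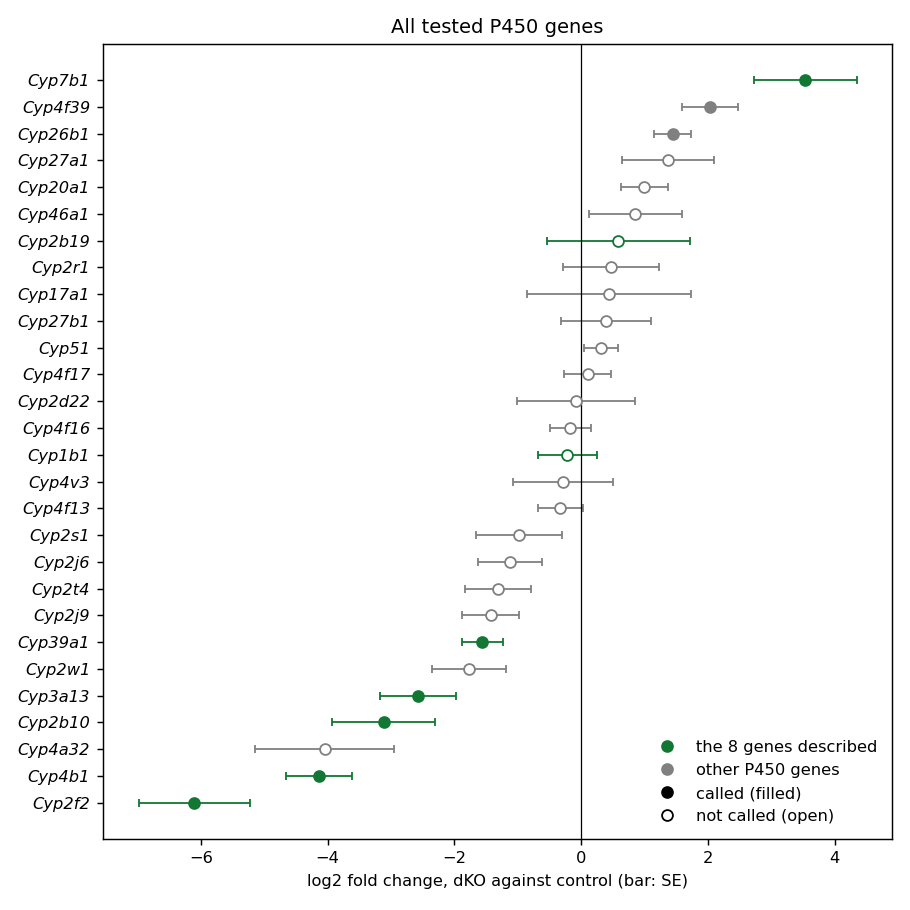
Log2 fold change (dKO-labelled against control-labelled, bar: SE) of all 28 tested P450 genes, with the 8 described genes in green and the other 20 in grey. Filled symbols were called. The called genes range from Cyp2f2 at -6.10 to Cyp7b1 at 3.53, and 20 of the 28 symbols are open.

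No tested electron donor of the P450 enzymes passed. Of 10 tested, edgeR called 0 (2 higher and 1 lower at an unadjusted p under 0.05, 1 lower by DESeq2, 0 by limma-voom), with a median of -0.10. Cyb5r3, the reductase of cytochrome b5, was the most counted, at 416 to 526 and 418 to 451 CPM (edgeR log2 fold change -0.09 ± 0.16, SE, adjusted p = 0.794), and its sign turned without C1 (0.02). Por, named after its values were seen, had 47.7 ± 5.46 and 65.3 ± 8.49 CPM (SD, n = 3; edgeR adjusted p = 0.183).

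Of 19 tested receptors and cofactors that control P450 genes, 1 rose, 2 fell and 16 did not pass, with a median of -0.10. The shares over all tested genes were 7.17% higher and 2.98% lower. Ahr, the aryl hydrocarbon receptor, fell from 370 (C1), 257 (C2) and 235 CPM (C3) to 122 (K1), 102 (K2) and 88.1 CPM (K3). The groups did not overlap, and the log2 fold change was -1.46 ± 0.22 (SE; edgeR adjusted p = 0.00539), a call that no single library ended. With replicates 1 and 2 alone it missed the threshold (-1.49; edgeR adjusted p = 0.0523). Its target Cyp1b1 was not called, as described above, and neither was any of 8 other tested AHR targets by edgeR (1 higher and 2 lower at an unadjusted p under 0.05, 1 higher and 1 lower by DESeq2, 1 lower by limma-voom), with a median of -0.53. The most counted of these was the stress regulator Nfe2l2 (edgeR log2 fold change 0.36 ± 0.24, SE, adjusted p = 0.411).

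Arnt2, a relative of the receptor's DNA-binding partner, rose from 1.13, 2.67 and 2.84 to 26.9, 11.4 and 7.57 CPM (edgeR log2 fold change 2.79 ± 0.57, SE, adjusted p = 0.0172), and lost its call without C1 (edgeR adjusted p = 0.0522). Nr3c1, the glucocorticoid receptor, fell from 149 ± 20.4 to 77.3 ± 21.3 CPM (SD, n = 3; edgeR log2 fold change -0.95 ± 0.23, SE, adjusted p = 0.0347). It lost its call without C1, C2, C3, K1 or K2 (edgeR adjusted p = 0.0509 to 0.115).

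Enzymes that act after P450 oxidation split between the directions. Of 40 tested conjugation and hydrolysis genes 4 rose, 4 fell and 32 did not pass, with a median of -0.45. Over all tested genes 7.17% were called higher and 2.98% lower. Sult2b1, the cholesterol sulfotransferase of the epidermis, rose from 6.88 ± 2.84 to 30.8 ± 3.31 CPM (SD, n = 3; edgeR log2 fold change 2.16 ± 0.32, SE, adjusted p = 0.00481). The glutathione transferase Gstm5 rose by 1.96 and its paralog Gstm1 fell by 1.18 on the log2 scale (adjusted p = 0.00897 for Gstm5 and 0.00768 for Gstm1, edgeR). Whether Gstm5 and Gstm1 shared reads in the counting was not tested. Sult5a1, a sulfotransferase, fell by 1.89 (edgeR adjusted p = 0.00595), and no single library ended these 4 calls. With replicates 1 and 2 alone Sult2b1, Gstm5 and Gstm1 missed the threshold (edgeR adjusted p = 0.0528 to 0.0833). Outside the naming rule, Sult4a1 and the epoxide hydrolase Ephx3 rose and the glutathione transferases Mgst2 and Gstz1 fell (edgeR adjusted p = 0.0119 to 0.0386). Sult4a1 had 3, 6 and 0 counts in the control-labelled libraries and met the count filter through the dKO-labelled ones. Calls ended for Ephx3 without any library but C1, for Gstz1 without any 1 of the 6 libraries and for Mgst2 without C1, C3 or K2 (edgeR adjusted p = 0.0572 to 0.127).

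Of 19 tested oxygenase and acylceramide genes of the epidermis, 4 rose, 0 fell and 15 did not pass, with a median of 0.25. Of all tested genes 7.17% were called higher and 2.98% lower. None of the 19 was lower at an unadjusted p under 0.05 or by DESeq2 or limma-voom. Besides Cyp4f39 and Ephx3 the called genes were the elongase Elovl4 (24.9 ± 10.7 to 67.7 ± 15.3 CPM, SD, n = 3; edgeR log2 fold change 1.44 ± 0.33, SE, adjusted p = 0.0288) and the lipoxygenase Aloxe3 (2.67 ± 1.29 to 9.71 ± 2.48 CPM; 1.87 ± 0.45, SE; edgeR adjusted p = 0.0334). Both lost their calls without C1, C3, K2 or K3, and Aloxe3 also without K1 (edgeR adjusted p = 0.0538 to 0.106). Of 16 tested oxysterol and bile acid genes, which surround Cyp39a1 and Cyp7b1 in the pathway, edgeR called 0 (1 higher at an unadjusted p under 0.05, 0 by DESeq2 or limma-voom), with a median of 0.11. Cyp51, the demethylase of cholesterol synthesis, was the most counted of these (edgeR log2 fold change 0.31 ± 0.27, SE, adjusted p = 0.538).

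Genes with the profile most like that of 2 of the P450 genes were sought among 10494 genes, by the root mean square difference of log2(CPM + 0.5) over the 6 libraries after each gene was centred on its mean. The nearest to Cyp2f2 were Cysltr1, a leukotriene receptor (0.35), Inpp4b, a phosphoinositide phosphatase (0.43), and Fmo1, a flavin monooxygenase (0.44). Fmo1 had 47.1 (C1), 19.6 (C2) and 31.03 CPM (C3) against 1.32 (K1), 3.45 (K2) and 5.33 CPM (K3). The nearest to Cyp4b1 were Clca3a1, a chloride channel regulator (0.36), Lrrc31, a leucine-rich repeat protein (0.50) and the matrix protein Tgfbi (0.55). The call of Lrrc31 ended without C1, C3 or K2 (edgeR adjusted p = 0.0523 to 0.0839). All 6 had lower values in every dKO-labelled than in any control-labelled library, which follows from how they were sought.

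Markers of other cell types moved with the labels in part, beside 7.17% of all tested genes called higher and 2.98% lower. Of 5 tested inner root sheath markers 3 fell, Krt25, Krt27 and Krt71. These 3 met the count filter through the control-labelled libraries, where they were high, so their calls say little about the list. The summed level of all 7 was 36.5 to 82.2 CPM in the control-labelled and 24.3 to 31.9 CPM in the dKO-labelled libraries, and Krt25 had 0 counts in K1, K2 and K3. Krt27 lost its call without C2, K1, K2 or K3 (edgeR adjusted p = 0.0547 to 0.116) and Krt71 without C2, K1 or K3 (0.0526 to 0.0997). Of 8 basal keratinocyte markers 2 fell, Col17a1 and Trp63, at summed levels of 32566 to 47075 and 27553 to 31625 CPM. Both lost their calls without C2, C3, K2 or K3 (edgeR adjusted p = 0.0683 to 0.111). In the opposite direction, Krt18 and Isl1 rose among 5 Merkel cell markers, and both met the count filter through the dKO-labelled libraries, where they were high. Krt8, Krt20 and Atoh1 were not tested and overlapped between the groups. The sums of 0.612 to 2.63 and 24.4 to 74.4 CPM were mostly Krt18 in the dKO-labelled libraries. Hair follicle markers summed to 915 to 1081 and 1659 to 2365 CPM, with Krt79 the 1 of 9 that rose. Most of the sums in the dKO-labelled libraries came from Krt17 (740 to 941 CPM) and Krt79 (415 to 512 CPM). Of the 9, 3 had negative log2 fold changes and were not called, Lrig1 (-0.84), Lgr5 (-1.88) and Cd34 (-1.13). Sebocyte sums overlapped (84.7 to 120 and 69.3 to 117 CPM), as did fibroblast sums (296 to 815 and 515 to 797 CPM), where Thy1 was the 1 of 7 that rose, a call that ended without C1, C3, K1, K2 or K3 (edgeR adjusted p = 0.0547 to 0.116). The part of these cells in the P450 levels was not tested.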

How the data were processed

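Each library has a deposited file of raw counts by gene symbol. The submitters' processing notes list HTSeq 0.6.1, TopHat2 2.0.13, DESeq2 1.6.3 and Cufflinks 2.2.1, and mm10 as the build. The annotation they counted on, and whether by strand, are not given in the sources used here. Per the labels' protocols, 10 ng of RNA was amplified, so intervals cover counting error only.

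Counts were compared with edgeR 4.0.16 in R 4.3.3 (TMM, filterByExpr with minimum count 10 and minimum total 15, quasi-likelihood F test, prior count 0.125, Benjamini-Hochberg over all tested genes, two-sided). No covariate was used, and calls were made at an adjusted p under 0.05. limma 3.58.1 and DESeq2 1.42.0 served as alternatives. The pipeline was tested on simulated counts. Positions and lengths are from GENCODE M21 (GRCm38), in which 23753 of 24453 symbols matched 1 gene, and promoters from RefSeq.

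The 8 members, the gene lists and the alternatives were chosen with earlier results of these data known. Named are all 8 members, up to 4 called genes of each list by smallest p (without any, the most counted), the tested P450 genes of the chromosome 7 cluster, Ring1, Rnf2 and the 3 genes most like each of 2 members, the called one with the largest change and the most abundant one. Nearest neighbours, marker genes and other called list members were named after their values were seen. Figures used matplotlib 3.10.9.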

Additional observations from a re-analysis of the deposited data

How the results depend on the processing

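With 1 library left out, 811 to 1393 genes were called in all (1512 with 6 libraries), 2 to 5 of the 8 P450 genes (6) and 0 to 3 of the other P450 genes (2). DESeq2 called 2535 genes in all and 5 other P450 genes, and with no count filter 5 other P450 genes were called. Replicates 1 and 2 alone gave 439 genes, 2 of the 8 and 0 of the others, replicates 2 and 3 alone 2694 genes and 6 of the others, and the Xist level as a covariate 816 genes and 2 of the 8. With that covariate the 4 genes no longer called had log2 fold changes of -2.87 (Cyp2b10), -2.73 (Cyp3a13), -1.46 (Cyp39a1) and 3.44 (Cyp7b1), and the median of the 8 was -2.09. Among the single genes, signs turned with 1 library left out for Cyp2b19 (log2 fold changes -0.064 to 1.68), Cyp1b1 (-0.44 to 0.34) and Cyb5r3 (-0.16 to 0.018). They also turned with replicates 1 and 2 alone for Cyp2b19 (-0.17) and Cyp1b1 (0.43), and with replicates 2 and 3 alone for Cyb5r3 (0.039), Cyp51 (-0.068) and Cyp2s1 (0.059). The cause was not tested. Over the alternatives the log2 fold changes were -6.96 to -5.14 for Cyp2f2 and -4.76 to -3.66 for Cyp4b1, which were chosen on this contrast.

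Replicate numbers are shared by the groups. Deviations of same-numbered libraries from their group means correlated at 0.19, 0.26 and 0.08 across genes for numbers 1, 2 and 3, each library best with its own number. The labels state no pairing, and whether the libraries are paired was not tested. With a replicate block 1451 genes, 4 of the 8 P450 genes and 2 of the others were called, and Cyp2b10 and Cyp7b1 were not (log2 fold changes -3.13 and 3.51). For Cyp2b19 the block took the SE from 1.13 to 0.42, and it was still not called (log2 fold change 0.54). Limits are the 3 libraries per group, the uneven Ring1 levels and the few counts of Cyp2b10, Cyp2f2 and Cyp7b1.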

Other observations

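Cyp2g1, a P450 gene of olfactory tissue in the chromosome 7 cluster, had 207, 5 and 13 counts in C1, C2 and C3 and 0 in K1, K2 and K3. It did not meet the count filter and was not tested, and almost all of its counts came from C1. C1 also had the highest Cyp2f2, Cyp2b10, Cyp2s1, Cyp2t4 and Cyp2w1 levels of the 6 libraries and the lowest Cyp2b19. Cyp4f37, a fatty acid P450 gene, had no count in C1, 0.656 CPM in C2, 0.718 CPM in C3 and none in any dKO-labelled library. These genes were named after their values were seen.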
